A study of Mus musculus with 11 samples.

Results

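The lysosome is the acidic compartment in which cells break down proteins, glycans and lipids that arrive by endocytosis, phagocytosis or autophagy. Its soluble hydrolases work at low pH, which a rotary proton pump, the V-type ATPase, keeps up. Lysosomal membrane proteins line the organelle and carry ions, enzymes and degradation products. The related transcription factors TFEB, TFE3 and MITF bind a short palindromic DNA site, known as the CLEAR element, in the promoters of many lysosomal genes. The kinase complex mTORC1 sits on the lysosomal surface and can hold TFEB in the cytosol by phosphorylation. The TSC complex, of which TSC1 is a subunit, restrains mTORC1. The mammary gland is a tissue with intense secretion during lactation and intense lysosomal degradation during involution.

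A set of 42 lysosomal genes was followed here, named by symbol and found among the 22196 genes obtained from the transcript tables. It comprised 3 regulators, 4 membrane proteins, 11 proteases, 10 glycosidases, 3 sulfatases, 5 lipid hydrolases or their activators, progranulin and 5 subunits of the proton pump. Reads were assigned to 41 of the 42, and the same 41 passed the filter on low counts. The exception, Gla, is treated separately below with the glycosidases.

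RNA came from 11 samples of inguinal mammary gland, from mice on normal chow. All carried Tsc1-fl/fl, that is, Tsc1 alleles flanked by sites for Cre recombinase. The 6 knockout samples were Adipoq-Cre-Tg/+, so that Cre was driven by the adiponectin gene in fat cells, and the 5 wild-type samples were Adipoq-Cre-+/+. Glands were taken 16 days after delivery, and all samples share the age label PND16.5. Lactation is not stated outright, and the 7 milk and alveolar markers Csn1s1, Csn2, Csn3, Wap, Lalba, Glycam1 and Elf5 together reached 341298 to 594537 CPM (reads scaled with TMM so that libraries compare) in every library. The samples are whole glands, and Cre is meant to act in only 1 of the cell types that contributed RNA. Fewer cells of a type and less RNA per cell cannot be told apart in such samples. The labels name the libraries as separate samples but do not say in so many words that each is a separate animal.

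Depth was 25817975 to 37894237 estimated reads per library. Tsc1 itself (chromosome 2, 28641228 to 28691167) ranged over 8.30 to 11.9 CPM with knockout labels and 9.54 to 12.1 CPM with wild-type labels (log2 fold change -0.09, SE 0.11; adjusted p = 0.772 by edgeR). The value is a sum over the whole gene and over all cell types, so it does not check the labels. Knockout 1 stood apart in skeletal muscle markers, with a summed 2175 CPM against 2.28 to 158 CPM in the other knockout glands. B cell markers were high in Wild-Type 2 and Wild-Type 5, at 52.7 and 67.9 CPM, against 0.807 to 15.1 CPM in the other 9 glands. Adipocyte markers summed to 1413 to 1884 CPM in the knockout samples against 1015 to 1443 CPM in the wild-type ones, with 6 of 8 at a log2 fold change above 0 and none at 0 in all libraries. Luminal epithelial markers summed to 592 to 918 against 432 to 834 CPM, with 6 of 6 above 0, and 5 of 5 myoepithelial markers were above 0. The alveolar markers went the other way, with 0 of 7 above 0 (1 with total-read scaling) and a median sum of 449142 CPM against 528424 CPM. The part of these shifts in the results that follow was not tested. Scaling matters in this tissue, because a few milk genes take a large share of the reads. Dividing by total reads alone moved the median log2 fold change of all genes from -0.01 to 0.18, and changes below are relative to the TMM scaling that sets this median near 0.

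Promoters of the lysosomal genes were searched for the core of the CLEAR element, because this is the sequence through which TFEB, TFE3 and MITF are known to reach them. RefSeq promoter windows (GRCm38.p6, 250 bases before to 50 bases after each gene's start) were at hand for 37 of the 42 genes. The windows of Ctsb, Ctsh, Asah1, Atp6v1b2 and Atp6v1h were not used here. The hexamer CACGTG, which reads the same on both strands, occurred in a window of 14 of the 37 genes (37.8%), against 8.09% of all 27025 genes in the table. Its extended form TCACGTGA, which contains the hexamer, occurred in 6 of the 37 (16.2%), against 1.12% of all genes. The palindrome of 10 bases that adds a G before and a C after this form occurred in 0 of the 37, against 0.37% of all genes. Matches describe these letters in these windows and do not show that a factor binds there.

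The windows of the 6 genes with the extended form are shown because they hold the longest form found in the set, on the strand of the gene, with the match in capitals and 10 bases to either side.
Mcoln1 (chr8:3500463-3500490, plus strand): ggcgccccgcTCACGTGAccgcggcgca
Ctsd (chr7:142387909-142387936, minus strand): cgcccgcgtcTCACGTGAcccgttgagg
Ctsa (chr2:164833750-164833777, plus strand): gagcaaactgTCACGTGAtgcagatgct
Atp6v0d1 (chr8:105566051-105566078, minus strand): cctactgcggTCACGTGAgacgcggtgc
Atp6v1a (chr16:44139374-44139401, minus strand): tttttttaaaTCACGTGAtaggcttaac
Gla (chrX:134601216-134601243, minus strand): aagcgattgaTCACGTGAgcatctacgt
The match began 4 bases before the annotated start in Atp6v0d1, 13 in Ctsa, 46 in Mcoln1, 99 in Ctsd, 132 in Atp6v1a and 228 in Gla. Lamp1 had the most copies, with 4 of the hexamer between 61 and 15 bases before its start, shown here as a stretch of 71 bases with each copy in capitals.
Lamp1 (chr8:13159090-13159160, plus strand): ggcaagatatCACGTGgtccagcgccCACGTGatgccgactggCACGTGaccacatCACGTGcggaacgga
The hexamer also occurred in the windows of 4 genes whose values are given below among those with the smallest p-values.
Lgmn (chr12:102439126-102439151, minus strand): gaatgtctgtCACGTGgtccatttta
Ctsl (chr13:64370741-64370766, minus strand): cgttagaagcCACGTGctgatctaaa
Naglu (chr11:101070011-101070036, plus strand): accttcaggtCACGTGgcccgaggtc
Arsa (chr15:89477425-89477450, minus strand): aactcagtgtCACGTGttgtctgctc
The remaining genes with the hexamer were Gaa, Glb1 and Sgsh.

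Lysosomal transcripts spanned a wide range of abundance. Levels of different genes are compared in TPM, a scale on which reads are divided by transcript length. The 5 highest were Ctsb at 300 TPM on average over the 11 glands, Ctsd at 200 TPM, Ctsl at 149 TPM, Psap at 95.9 TPM and Lamp1 at 75.2 TPM. They encode the proteases cathepsin B, cathepsin D and cathepsin L, the precursor of the saposins that help to degrade sphingolipids, and a main glycoprotein of the lysosomal membrane. The spreads of neighbours in this order overlapped. Ctsb ranged from 206 to 463 TPM, Ctsd from 155 to 267 TPM, Ctsl from 65.0 to 264 TPM, Psap from 78.7 to 125 TPM and Lamp1 from 61.5 to 94.4 TPM.

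The 5 lowest were Mitf at 0.271 TPM, Manba at 0.6 TPM, Sgsh at 0.92 TPM, Ctsk at 1.76 TPM and Naglu at 2.14 TPM. Manba encodes beta-mannosidase, Sgsh and Naglu encode enzymes of heparan sulfate breakdown, and Ctsk encodes the collagen-degrading protease cathepsin K. The ranges of Mitf and Manba, 0.142 to 0.432 and 0.416 to 0.902 TPM, barely met. The highest mean level was 1107 times the lowest. The other regulators, Tfe3 at 5.07 TPM and Tfeb at 3.42 TPM, lay in the lower part of the range but above several hydrolases, among them Naglu and Arsa.

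**Figure D1:**
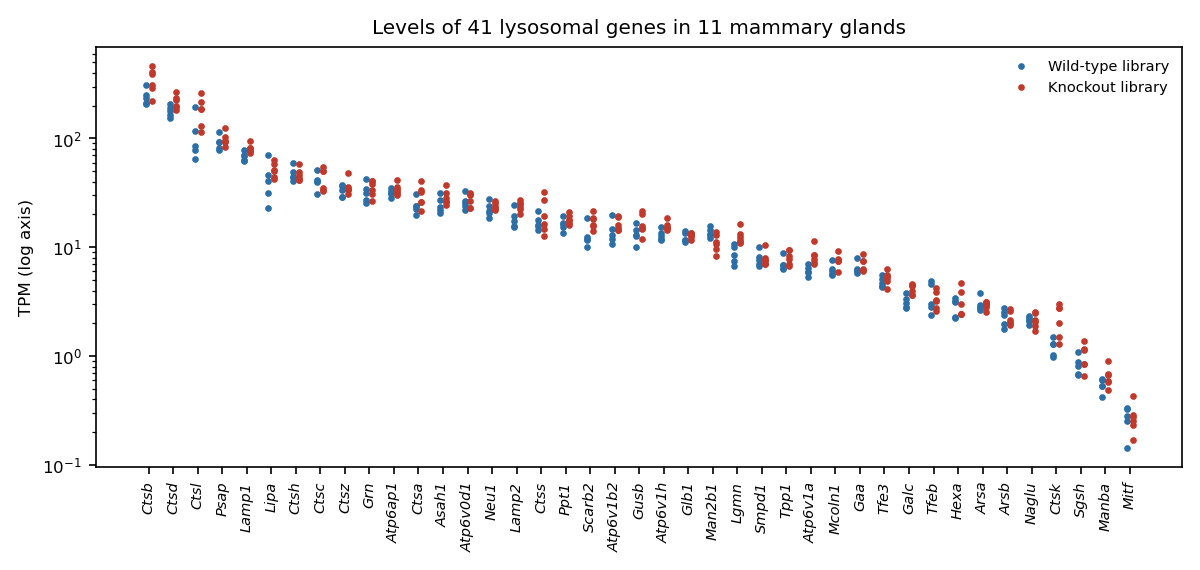
Levels of the 41 lysosomal genes with reads, in TPM on a log axis, ordered by their mean over 11 glands. Each point is 1 library, blue for wild-type and red for knockout, and levels run from 300 TPM for Ctsb to 0.271 TPM for Mitf.

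The comparison of knockout with wild-type glands asks whether loss of Tsc1 in adipocytes goes with a different level of these genes in the gland. None of the 41 genes passed the threshold of 0.05 on the adjusted p-value of edgeR's quasi-likelihood test, in a fit in which 0.0550% of all 12716 genes passed. With DESeq2, 1 of the 41 passed, Man2b1, against 1.15% of all genes. With limma on the authors' deposited table none of the 42 passed, against 0.0543% of the genes there. At an unadjusted p-value under 0.05 in edgeR there were 10 of 41 (24.4%), 4 higher and 6 lower in knockout, against 12.4% of all genes, 6.31% higher and 6.08% lower. The split by direction depended on the scaling, on the method and on single libraries. It was 11 higher and 1 lower with total-read scaling, which moves all genes upward. It was 7 higher and 3 lower without Knockout 1, 6 and 4 without Knockout 5, 5 and 5 without Wild-Type 4, and 3 and 3 without Wild-Type 3. With the replicate number as a block it was 4 and 3, and with DESeq2 5 and 7. With limma on the authors' deposited table, Gla included, it was 5 and 4. The 10 came from 4 roles. Ctsk, Ctsl, Lgmn and Atp6v1a were at higher mean levels in knockout, and Man2b1, Ctsh, Naglu, Arsa, Arsb and Atp6ap1 at lower ones.

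Most fold changes were small. Of the 41, 16 had a log2 fold change above 0 (39.0%), against 48.3% of all genes, and the median was -0.03, against -0.01 over all genes. The 95% interval of the fold change lay within 2-fold in both directions for 39 of the 41, Ctsk and Ctsl being the exceptions, and within 1.5-fold for 36, with Mitf, Ctsc and Man2b1 as further exceptions. Knockout and wild-type CPM did not overlap in 1 of the 41, Man2b1, which was lower in knockout. Groups without overlap made up 1.32% of all genes, and 0.535% were lower in knockout. With total-read scaling, which moves all genes, 34 of the 41 were above 0 with a median of 0.16, and relative to the median of all genes their median was -0.02, as with TMM.

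**Figure D2:**
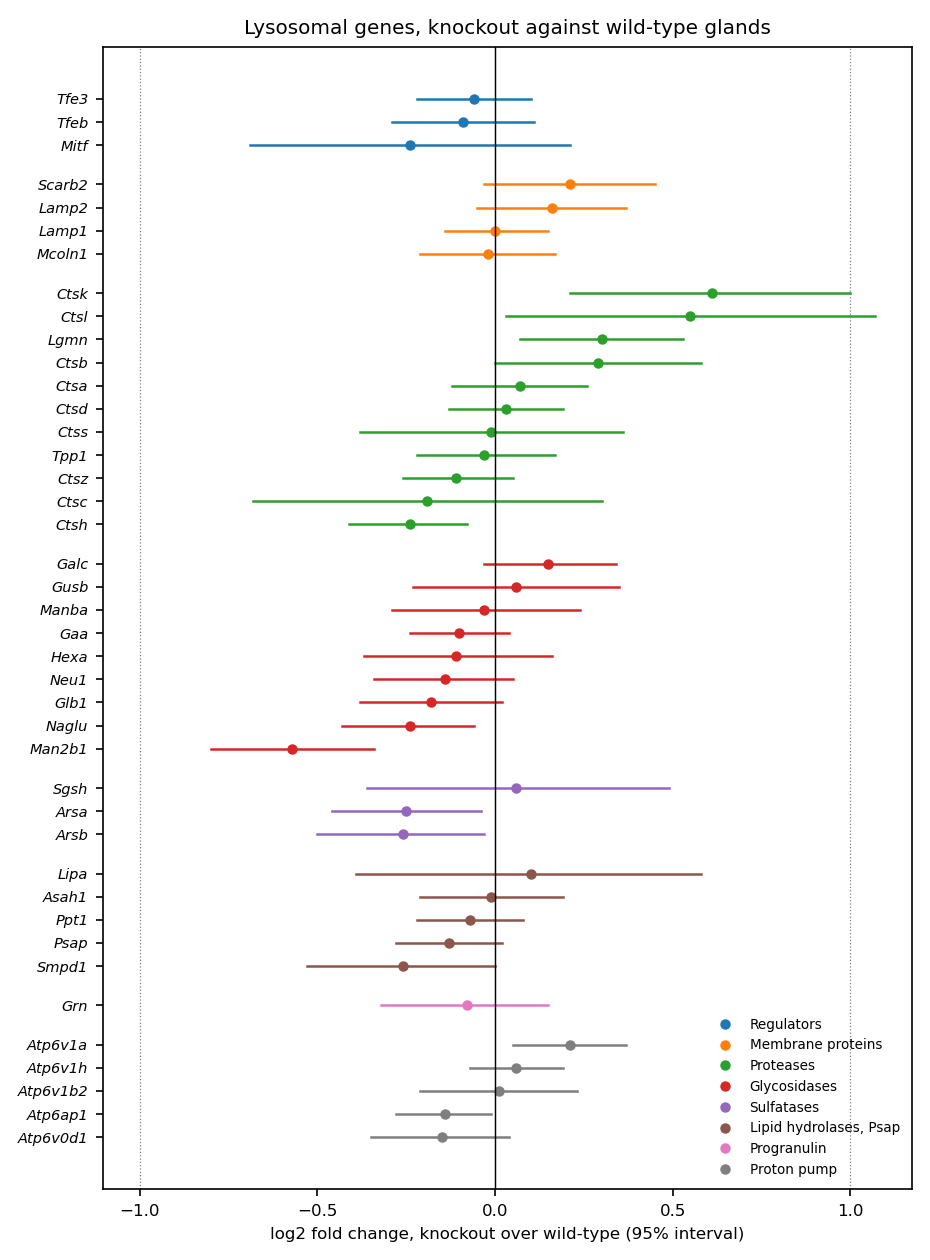
Log2 fold change, knockout over wild-type, of 41 lysosomal genes by role, with 95% intervals from edgeR over 6 knockout and 5 wild-type libraries. Dotted lines mark 2-fold changes. Most intervals include 0, and Man2b1 at -0.57 and Ctsk at 0.61 lie at the ends.

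The 3 regulators had log2 fold changes a little below 0, none past the threshold, and with total-read scaling 2 of the 3 were above 0. Tfeb (chromosome 17, 47737030 to 47792419) was at 7.60 CPM at the lowest, 8.33 CPM at the median and 10.2 CPM at the highest in knockout, and at 8.30, 10.2, 9.20, 8.59 and 9.05 CPM in Wild-Type 1 to 5. Knockout 2, 4 and 6 were below every wild-type library, and the other 3 lay within the wild-type range. For Tfeb the log2 fold change was -0.09 (SE 0.09; adjusted p = 0.732 by edgeR), with a 95% interval from -0.29 to 0.11. Tfe3 (chromosome X, 7762560 to 7775202), the closest relative of Tfeb in function, was at 17, 18 and 19 CPM (lowest, median and highest) among knockouts and at 20.9, 17.7, 20.8, 17.4 and 16.9 CPM in the wild-type libraries. Wild-Type 1 and 3 were above every knockout library and Wild-Type 5 below every one of them. Its log2 fold change came to -0.06 (SE 0.08; adjusted p = 0.785 by edgeR).

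Mitf (chromosome 6, 97807052 to 98021349), best known as the master regulator of pigment cells, was near the limit of detection, with 18 to 41 reads per library. It was at 0.597, 0.830 and 0.891 CPM (lowest, median and highest) among knockouts and at 0.630, 0.960, 1.29, 0.850 and 1.02 CPM in the wild-type libraries. Knockout 6 was low within its group, and the 3 highest values were in wild-type glands. The log2 fold change of -0.24 (SE 0.21; adjusted p = 0.663 by edgeR) was about the size of its error, and its interval from -0.69 to 0.21 was the widest of the 3 regulators. These are RNA levels. TFEB activity is known to be set largely by where the protein is in the cell, which RNA counts do not show.

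Reads of Tfeb, Tfe3 and Mitf were split among several transcripts by the quantifier. Tfeb-201, a transcript of 1605 bases, took 47.5% ± 13.9 (SD, n = 6) of Tfeb reads among knockouts, against 54.7% ± 25.2 (SD, n = 5) among wild types, ranging from 14.7% in Wild-Type 5 to 74.7% in Wild-Type 3 (two-sided exact permutation test, p = 0.543). On 223 to 381 reads per library this split was unstable. It matters for the gene value, since correcting for transcript length moved the log2 fold change of Tfeb to -0.32 (adjusted p = 0.559 by edgeR).

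Membrane proteins were likewise close between genotypes, with 3 of 4 above 0 (4 with total-read scaling) and none past the threshold. Scarb2 (chromosome 5, 92441314 to 92506833) encodes LIMP-2, a membrane glycoprotein of the lysosome. It was at 41.9, 50.3 and 57.0 CPM (lowest, median and highest) among knockouts and at 42.9, 34.7, 46.3, 50.7 and 37.4 CPM in the wild-type libraries, so that Wild-Type 2 and 5 were below every knockout library and the rest overlapped. This gave a log2 fold change of 0.21 (SE 0.11; adjusted p = 0.468 by edgeR). Lamp1 was the steadiest of them, with 192 CPM ± 11.3 (SD, n = 6) and 191 CPM ± 11.1 (SD, n = 5) and an interval of -0.14 to 0.15 around a log2 fold change of 0.00. Mcoln1, which encodes the calcium channel TRPML1, had 17.4 CPM ± 1.61 (SD, n = 6) and 17.6 CPM ± 1.78 (SD, n = 5).

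Lamp2 encodes a membrane glycoprotein made in several forms by alternative splicing, one of which serves chaperone-mediated autophagy. It averaged 52.3 CPM ± 3.89 (SD, n = 6), against 46.7 CPM ± 6.92 (SD, n = 5) in the wild-type samples (log2 fold change 0.16, SE 0.10; adjusted p = 0.525 by edgeR). The transcript Lamp2-201 took 62.0% ± 3.94 (SD, n = 6) of its reads among knockouts, against 66.0% ± 2.69 (SD, n = 5) among wild types. Lamp2-202, of the same listed length of 1248 bases, took nearly all the rest. The difference of -3.98 percentage points was within the spread of the libraries (two-sided exact permutation test, p = 0.0996, adjusted p = 0.493). Transcript shares were compared in this way for the 7 genes with at least 2 transcripts over 10% of the reads, which were Tfeb, Tfe3, Mitf, Lamp2, Ctsh, Grn and Galc. None passed, and none had an exact p-value under 0.05, where 0.00216 was the smallest possible. In the other 34 genes with reads, 1 transcript held over 90% of them.

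Proteases included the 3 genes of the highest level and, in Ctsk, the largest fold change of the 41, with 6 of 11 above 0 (10 of 11 with total-read scaling) and 3 of the 4 genes that were higher at an unadjusted p-value under 0.05. Ctsk (chromosome 3, 95499256 to 95509362) was at 2.71, 4.34 and 5.18 CPM (lowest, median and highest) among knockouts and at 2.35, 2.96, 2.51, 2.37 and 3.19 CPM in the wild-type libraries. In knockout 4 of 6 libraries were above every wild-type library, and Knockout 3 and 5 lay within the wild-type range. Ctsk had a log2 fold change of 0.61 (SE 0.18; adjusted p = 0.274 by edgeR), on 67 to 200 reads per library. Fibroblasts and osteoclasts are known sources of Ctsk. All 6 fibroblast markers (Col1a1, Col1a2, Col3a1, Pdgfra, Dcn and Lum) also had a log2 fold change above 0, and their summed level was 273 to 653 CPM among knockouts, against 206 to 461 CPM among wild types. None of the 6 was at 0, and their part in the Ctsk difference was not tested.

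Lgmn (chromosome 12, 102394084 to 102439813) encodes legumain, the asparaginyl endopeptidase that processes other lysosomal enzymes. It was at 31.4, 33.1 and 35.0 CPM (lowest, median and highest) among knockouts and at 36.4, 24.0, 23.3, 26.3 and 25.5 CPM in the wild-type libraries. Wild-Type 1 was above every knockout library and the other 4 below every one. Over all libraries the log2 fold change was 0.30 (SE 0.11; adjusted p = 0.313 by edgeR). Without Wild-Type 1 it was 0.43, with an edgeR adjusted p of 0.0401. Leaving out each of the other 10 libraries in turn gave adjusted p-values from 0.278 to 0.58.

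Ctsh (chromosome 9, 90054152 to 90076089), the gene of the aminopeptidase cathepsin H, went the other way. It was at 65.9, 69.4 and 75.4 CPM (lowest, median and highest) among knockouts and at 83.3, 74.2, 96.2, 85.2 and 75.6 CPM in the wild-type libraries, with an overlap only between Wild-Type 2 and the highest knockout library. Its log2 fold change was -0.24 (SE 0.08; adjusted p = 0.275 by edgeR). Ctsl (chromosome 13, 64359337 to 64370890) varied widely in both genotypes, over 228 to 465 CPM among knockouts and 148 to 355 CPM among wild types. Its log2 fold change of 0.55 had an interval from 0.03 to 1.07 (adjusted p = 0.384 by edgeR).

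Ctsb lay above every wild-type library in 5 of 6 knockout libraries and below every one in Knockout 5. It averaged 653 CPM ± 134 (SD, n = 6), against 535 CPM ± 37.1 (SD, n = 5) in the wild-type samples, a log2 fold change of 0.29 (SE 0.13; adjusted p = 0.409 by edgeR). Ctsd, the main aspartic protease, was nearly level at 536 CPM ± 28.5 (SD, n = 6) and 524 CPM ± 46.9 (SD, n = 5). Of the 31-base words of its coding sequence, 63.2% also occur in the overlapping gene Gm49369, which was assigned at most 2.83% as many reads. Log2 fold changes of Ctsa, Ctsc, Ctss, Ctsz and Tpp1, which encode further cathepsins and tripeptidyl peptidase, ran from -0.19 to 0.07. Cathepsins S and C are known as enzymes of immune cells. Of 12 macrophage markers, including Adgre1, Csf1r and C1qa, 2 were above 0 (9 with total-read scaling) and none was at 0. Their summed level was 106 to 156 CPM among knockouts and 113 to 180 CPM among wild types. Ctss lay at 26.9 to 49.0 and 28.8 to 46.3 CPM in the same samples, and the part of macrophages in it was not tested.

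Glycosidases, which trim sugars from glycoproteins, glycolipids and glycosaminoglycans, had 7 of 9 values below 0 and a median of -0.11, while with total-read scaling, which moves all genes upward, 7 of 9 were above 0. Relative to the median of all genes, 2 of 9 were above it with either scaling. With total-read scaling Man2b1 was at -0.36 and Naglu at -0.05. Man2b1 (chromosome 8, 85083270 to 85098282) encodes lysosomal alpha-mannosidase, the enzyme missing in alpha-mannosidosis, and had the smallest p-value of all 41. It was at 66.7, 80.0 and 89.6 CPM (lowest, median and highest) among knockouts and at 129, 109, 140, 95 and 112 CPM in the wild-type libraries. Every knockout library was below every wild-type library. The mean was 79.0 CPM ± 8.22 (SD, n = 6) against 117 CPM ± 17.6 (SD, n = 5), 0.674 times the wild-type level (log2 fold change -0.57, SE 0.11; adjusted p = 0.102 by edgeR).

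The call for Man2b1 rested on the choice of model. DESeq2 gave a log2 fold change of -0.56 with an adjusted p of 0.000738. In edgeR the adjusted p fell under the threshold when Wild-Type 4, the wild-type library nearest the knockouts, was left out (0.0423), and was at most 0.249 with any other library left out. Over all alternatives its log2 fold change stayed between -0.63 and -0.36.

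Naglu (chromosome 11, 101070012 to 101077672) encodes the N-acetylglucosaminidase of heparan sulfate breakdown. It was at 10.3, 10.9 and 13.6 CPM (lowest, median and highest) among knockouts and at 14.5, 13.9, 13.7, 12.3 and 13.4 CPM in the wild-type libraries, so that 2 knockout libraries reached the wild-type range. Naglu had a log2 fold change of -0.24 (SE 0.09; adjusted p = 0.313 by edgeR). Galc and Gusb, for galactosylceramidase and beta-glucuronidase, were at 0.15 and 0.06, and Gaa, Glb1, Hexa, Manba and Neu1, for acid alpha-glucosidase, beta-galactosidase, a hexosaminidase subunit, beta-mannosidase and a sialidase, were between -0.18 and -0.03.

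Gla (chromosome X, 134588149 to 134601125), the gene of alpha-galactosidase A, had 0 reads in every library from the transcripts that the annotation assigns to it. The authors' deposited table nevertheless lists Gla at 51.2, 68.5, 50.6, 58.2, 44.6 and 76.1 normalized counts in Knockout 1 to 6 and at 30.7, 37.2, 45.4, 52.2 and 49.5 in Wild-Type 1 to 5. That table thus counts reads for Gla that the annotation used here does not assign to it, and the 0 is not absence of expression. On the scale of the authors' deposited table the log2 difference was 0.43 (SE 0.19, on log2 of the value plus 1; adjusted p = 0.462 by limma). Wild-Type 3, 4 and 5 lay within the knockout range, and Wild-Type 1 and 2 below it. In the 41 other genes, the sums used here differed by at most 0.719% in any library from the authors' deposited table, once corrected for effective length and scaled by size factors.

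Sulfatases remove sulfate groups from glycolipids and glycosaminoglycans. Arsa (chromosome 15, 89472476 to 89477425) encodes arylsulfatase A, whose loss causes metachromatic leukodystrophy. It was at 8.19, 10.1 and 10.6 CPM (lowest, median and highest) among knockouts and at 12.3, 11.4, 12.7, 12.9 and 9.51 CPM in the wild-type libraries. Only Wild-Type 5 lay within the knockout range. The resulting log2 fold change was -0.25 (SE 0.10; adjusted p = 0.343 by edgeR). Arsb, for arylsulfatase B, was similar in size at -0.26 (SE 0.11; adjusted p = 0.363 by edgeR), and Sgsh was at 0.06 ± 0.20 on 72 to 143 reads per library.

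Lipid hydrolases and their activator gave 4 of 5 values below 0 (1 of 5 with total-read scaling) and none past the threshold. Smpd1 (chromosome 7, 105554360 to 105558389) encodes acid sphingomyelinase. It was at 31.2, 34.8 and 36.2 CPM (lowest, median and highest) among knockouts and at 39.1, 53.2, 44.0, 29.1 and 39.7 CPM in the wild-type libraries. Wild-Type 4 was the lowest of all and the other 4 were above every knockout library. Smpd1 had a log2 fold change of -0.26 (SE 0.12; adjusted p = 0.405 by edgeR), and of -0.15 without Wild-Type 2 and -0.36 without Wild-Type 4. Lipa, for the acid lipase that frees cholesterol and fatty acids from lipoproteins, varied widely, with 89.6 to 156 CPM among knockouts and 59.7 to 148 CPM among wild types. Psap averaged 365 CPM ± 13.8 (SD, n = 6) against 399 CPM ± 33.6 (SD, n = 5), and Asah1 and Ppt1, for acid ceramidase and palmitoyl-protein thioesterase, were at log2 fold changes of -0.01 and -0.07.

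Grn (chromosome 11, 102430315 to 102437048) encodes progranulin, a secreted and lysosomal protein that is cleaved into granulins. It was at 86.2, 107 and 125 CPM (lowest, median and highest) among knockouts and at 133, 97.5, 105, 126 and 105 CPM in the wild-type libraries, with overlapping groups and a log2 fold change of -0.08 (SE 0.11; adjusted p = 0.789 by edgeR).

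Of the 5 subunits of the proton pump, 3 were above 0, and with total-read scaling all 5 were. Atp6v1a (chromosome 16, 44085402 to 44139705), the catalytic subunit of the cytosolic sector, was at 32.5, 33.4 and 37.6 CPM (lowest, median and highest) among knockouts and at 34.0, 29.5, 29.0, 28.7 and 27.8 CPM in the wild-type libraries. Wild-Type 1 lay within the knockout range and the other 4 below it. Atp6v1a had a log2 fold change of 0.21 (SE 0.07; adjusted p = 0.311 by edgeR). Atp6ap1, an accessory subunit, was at -0.14 (SE 0.06; adjusted p = 0.378 by edgeR) and Atp6v0d1, of the membrane sector, at -0.15 (SE 0.09; adjusted p = 0.511 by edgeR). Both were above 0, at 0.05 and 0.03, when libraries were scaled by total reads. Atp6v1b2 and Atp6v1h, the other subunits of the cytosolic sector, were at 0.01 and 0.06.

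**Figure D3:**
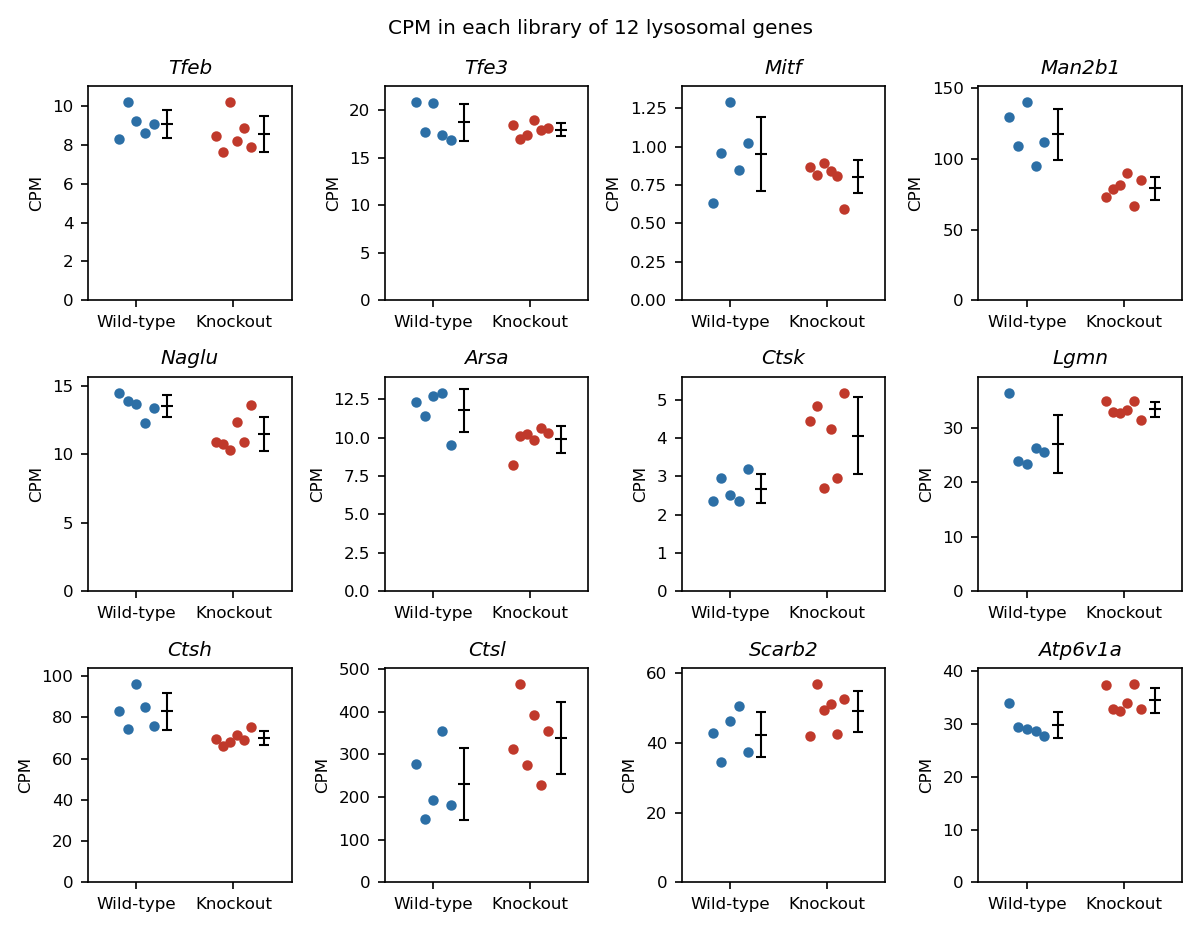
CPM in each library of 12 lysosomal genes, wild-type in blue (n = 5) and knockout in red (n = 6), with the mean and SD in black; each vertical axis starts at 0. Man2b1 is the gene whose groups do not overlap, and in Lgmn and Atp6v1a the lone high wild-type point is Wild-Type 1.

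Genes with the hexamer CACGTG in their promoter window were compared with those without it. The 13 tested genes that hold it had a median log2 fold change of 0.00, with 7 above 0, and the 23 without it a median of -0.08, with 6 above 0. Of the 10 genes with an unadjusted p-value under 0.05, 9 were in the promoter table. In it 5 hold the hexamer, Atp6v1a, Ctsl and Lgmn at higher and Naglu and Arsa at lower mean levels in knockout, so that both directions occurred with it. These counts hold for TMM scaling.

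Variation between glands of a genotype was of the same order as the fold changes. The median coefficient of variation of the 41 genes was 9.93% among knockouts and 10.8% among wild types. The steadiest in knockout were Psap at 3.78% and Atp6v1h at 3.79%, and the most variable in wild-type glands were Ctsl at 36.3% and Lipa at 34.2%. Wild-Type 1 was the highest of the 11 libraries for 12 of the 41 genes, among them Lamp1, Ctsd, Lgmn, Psap and Grn. Wild-Type 2 and 5, the glands high in B cell markers, were the lowest for 8 and 5 genes, among them Ctsl and Lipa in Wild-Type 2 and Lamp2 in Wild-Type 5. Knockout 1 was the lowest for 7 genes, and Knockout 3 and 5 for 6 each. The part of other cell types in these values was not tested. Summed over the 41 genes, libraries lay between 3223 and 3966 CPM with the knockout and between 3229 and 3915 CPM with the wild-type genotype.

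**Figure D4:**
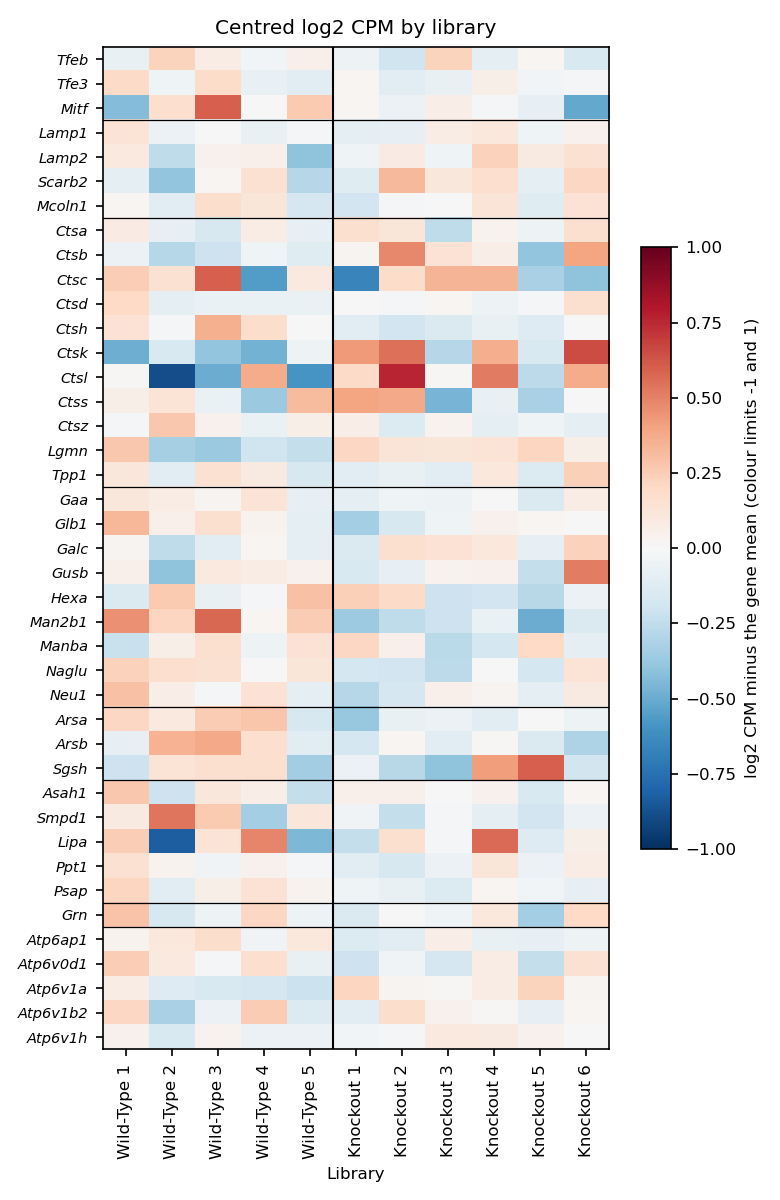
Log2 CPM of 41 lysosomal genes in each library after the mean of each gene was subtracted, 5 wild-type libraries to the left of the vertical line and 6 knockout libraries to its right. Horizontal lines part the roles; rows such as Ctsl, Lipa and Ctsc vary within both genotypes, while Lamp1 and Atp6v1h stay close to 0 throughout.

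Other genes of the lysosome were read from the same fit in 5 lists with 97 symbols, of which 86 were tested. None passed the threshold in edgeR or DESeq2, while 12 of the 86 were under 0.05 before adjustment in edgeR, 4 higher and 8 lower, a share near the 12.4% of all genes. Their median log2 fold change was -0.05, with 36 above 0, against 74 with total-read scaling. Genes with the smallest p-value in a direction are given for each list.

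Among 24 other hydrolases, 12 were above 0 and 12 below. Ctso, for cathepsin O, was at 0.29 (SE 0.11; adjusted p = 0.341 by edgeR). Among 22 other membrane proteins and lipid carriers, Laptm4b was at 0.40 (SE 0.15; adjusted p = 0.341 by edgeR) and Npc2, a cholesterol carrier of the lysosomal lumen, at -0.20 (SE 0.08; adjusted p = 0.360 by edgeR).

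Of 13 other subunits of the proton pump, 12 were below 0, in a range from -0.30 to 0.05, but with total-read scaling, which moves all genes upward, 12 were above 0. Above the median of all genes were 1 of the 13 with TMM and 2 with total-read scaling. The lowest adjusted p was 0.518, for Atp6v1d at -0.09 (SE 0.06). Atp6v0a2 was the subunit above 0. Among 12 genes for the sorting of lysosomal enzymes, Ap1g1, a subunit of the clathrin adaptor AP-1, was at 0.31 (SE 0.10; adjusted p = 0.307 by edgeR), and Gnptg, a subunit of the enzyme that starts the mannose phosphate tag, was at -0.23 (SE 0.10; adjusted p = 0.359 by edgeR). Of 15 genes that link the lysosome to mTORC1, 10 were below 0, against 2 with total-read scaling. Lamtor2, part of the Ragulator scaffold, averaged 21.7 CPM ± 2.15 (SD, n = 6), against 26.9 CPM ± 3.55 (SD, n = 5) in the wild-type samples (log2 fold change -0.31, SE 0.10; adjusted p = 0.282 by edgeR). Rragd, a Rag GTPase gene known as a TFEB target, was at 0.48 (SE 0.46; adjusted p = 0.7 by edgeR), a difference about as large as its error.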

How the data were processed

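Per the file headers, the authors' transcript tables give each transcript's length, effective length, TPM and estimated count of reads; per the submitters' processing notes they were made with Salmon 1.3.0 on GRCm38.p6, and libraries were directional per the labels' protocols. The annotation and strand setting of the index are not given in the sources used here; listed lengths of 124 of 124 transcripts of the set with the same version equal the coding length within 3 bases, so untranslated regions were not counted. Estimated counts were summed per gene with GENCODE M21 and rounded; 752 of 58204 transcripts had no gene there and held 0.195% to 0.265% of a library's reads. The authors' deposited gene table, named as DESeq2-normalized counts (DESeq2 1.28.1 per the submitters' processing notes), holds a signal on the authors' scale and was used for Gla and as an alternative.

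Genes with low counts were removed with filterByExpr (12716 kept, at most 0.0698% of reads removed). Knockout and wild-type libraries, grouped by title, were compared with the robust quasi-likelihood F test of edgeR 4.0.16 (R 4.3.3), TMM scaling, a model with genotype alone, and p-values adjusted over all genes by Benjamini and Hochberg's method. On simulated counts, with 1 dispersion for every gene and 200 changed genes, the same steps recovered 83 of 98 genes changed by 1 on the log2 scale. Smaller changes were not simulated, and the log2 fold changes of the lysosomal genes lay between -0.57 and 0.61. Alternatives were DESeq2 1.42.0, RLE factors, no filter, transcript length offsets, scaling without the 20 genes with most reads, the replicate number as a block, each library left out and, chosen after seeing the data, total-read scaling and limma 3.58.1 with log2(value + 1) on the authors' deposited table (genes with a mean of at least 10). The block fit left out Knockout 6, which has no wild-type library of the same number. CPM are TMM-scaled. The p-values measure the spread between these libraries. Within each genotype no 2 libraries were alike within counting noise (chi-square per degree of freedom 20.77 to 88.49). Transcript shares were compared with exact permutation tests over 462 splits. The set and the lists were chosen with earlier results of these data known. Each wild-type library's value and the lowest, median and highest knockout value are given for the regulators, for the gene with the smallest p-value in each role and for the 6 smallest over all; of the other lists, genes with the smallest p-value in a direction are named. Acp2 was not tested for the same reason as Gla, and Tmem55b was not matched by symbol. For 1 list, the gene that this rule selects in 1 direction is not reported here.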

Additional observations from a re-analysis of the deposited data

Results flagged for a closer look

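In 106 groups of values within a genotype, it was asked whether 1 library lay far from the rest. The groups were the CPM of each tested lysosomal gene, Gla in the authors' deposited table, and the summed markers of each cell type. A library lay far from the rest in 13. For independent and normally distributed groups the rule gives about 1 in 20, or 5.3. These groups share libraries, so 5.3 is not a chance expectation for them. Ctsd was at 591 CPM in Knockout 6, against 510 to 537 CPM in the other knockout libraries, and at 608 CPM in Wild-Type 1, against 496 to 507 CPM. Gusb was at 92.5 CPM in Knockout 6, against 54.9 to 66.8 CPM, and at 49.1 CPM in Wild-Type 2, against 66.8 to 69.4 CPM. Wild-Type 1 also stood apart in Lgmn, at 36.4 CPM against 23.3 to 26.3 CPM, and in Atp6v1a, at 34.0 CPM against 27.8 to 29.5 CPM. Mitf was low in Knockout 6, at 0.597 CPM against 0.807 to 0.891 CPM, Arsa in Knockout 1, at 8.19 CPM against 9.86 to 10.6 CPM, and Asah1 in Knockout 5, at 48.4 CPM against 53.6 to 55.8 CPM.

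Of the marker sums, luminal epithelium was at 834 CPM in Wild-Type 4, against 432 to 533 CPM. Knockout 1 was high in B cell markers, at 13.3 CPM against 0.807 to 2.95 CPM, in T cell markers, at 6.41 CPM against 1.09 to 3.07 CPM, and in skeletal muscle markers, at 2175 CPM against 2.28 to 158 CPM.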

How the results depend on the processing

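The count of all genes called was 146 with DESeq2 and 0 with the replicate block, and ran from 0 to 28 when 1 library was left out. The block fit also left out Knockout 6, and leaving out that library alone gave 0 genes called as well. Of the lysosomal genes, 1 was called with DESeq2 and 0 to 1 with a library left out. With a library left out, 6 to 10 lysosomal genes had an unadjusted p-value under 0.05, and in 1 to 4 the groups did not overlap. The same counts over all genes are not given for these fits, so neither range shows anything particular to the set. Groups of fewer libraries are also separated more easily for any gene. Scaling by total reads placed 34 of the lysosomal genes above 0, with a median of 0.16, where 82.9% of all genes were above 0. It left 3 of them without overlap, a count with no share of all genes beside it. It also turned 7 values whose size exceeded their SE, Ctsz (0.09), Gaa (0.09), Glb1 (0.01), Neu1 (0.04), Psap (0.06), Atp6ap1 (0.05) and Atp6v0d1 (0.03). Of 779 values of single genes under an alternative, 769 kept their side of the threshold without such a turn and 3 newly passed it, Man2b1 under DESeq2 and without Wild-Type 4, and Lgmn without Wild-Type 1. The cause was not tested. Replicate numbers did not pair the samples: correlations of same-numbered libraries ran from -0.223 to 0.187, and 1 of 5 knockout libraries matched its own number best; the replicate block left 0 lysosomal genes called. The companion lists had 0 calls under each alternative run, and 0 transcript shares passed with TPM or with a library left out. At these depths genes such as Mitf (18 to 41 reads) have wide intervals.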

Other observations

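Laptm5 and Ctse, lysosomal genes outside the naming rule, are given after their values were seen. Laptm5, a lysosomal membrane protein of blood cells, was at 3.60 to 7.66 CPM in knockout. It was at 12.7 and 13.9 CPM in Wild-Type 2 and Wild-Type 5, against 4.76 to 7.56 CPM in the other wild-type glands (log2 fold change -0.75, SE 0.31, adjusted p = 0.362 by edgeR). Wild-Type 2 and Wild-Type 5 had the highest B cell, T cell and macrophage marker sums of all libraries. The part of these cells in Laptm5 was not tested. Ctse, which encodes the endosomal protease cathepsin E, was at 13.2 CPM in Wild-Type 1 and at 0.421 to 1.48 CPM in the other 10 libraries, so that its log2 fold change of -2.03 (SE 0.82; adjusted p = 0.362 by edgeR) rests on that gland. Acp2, for lysosomal acid phosphatase, had 8 estimated reads in all libraries from the transcripts the annotation assigns to it, while the authors' deposited table lists it at 141 normalized counts on average in knockout and 127 in wild-type libraries. In 131 of 22189 genes found in both, the authors' deposited table exceeded the sums used here by over 1.5 times.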
